A study of Mus musculus with 4 samples.

Results

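Neurexins, neuroligins and leucine-rich repeat transmembrane (LRRTM) proteins join the membranes on the sides of a synapse. Neurexins lie mainly in the presynaptic membrane and reach across the cleft to neuroligins and LRRTMs in the postsynaptic membrane, and alternative splicing of neurexins sets which partners they bind. In the hippocampus neuroligin 1 is known mainly from excitatory synapses, neuroligin 2 from inhibitory synapses and neuroligin 3 from both, while LRRTMs are known from excitatory synapses. The 9 genes described here are the neurexins Nrxn2 and Nrxn3, the neuroligins Nlgn1, Nlgn2 and Nlgn3, and Lrrtm1, Lrrtm2, Lrrtm3 and Lrrtm4, chosen by symbol from the 28193 genes of the deposited count table. Sleep deprivation (SD) changed none of the 9 past the threshold in the edgeR test. Lrrtm3 came nearest, at 33.7 and 40.8 CPM (counts scaled to a common library size) in the n = 2 libraries of non-sleep-deprived (NSD) mice and at 47.3 and 55.4 in the n = 2 libraries of SD mice, and it was called when the batch number of the libraries entered the fit.

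The values come from fosTRAP-seq, in which ribosomes of neurons that were active in a tagging window are pulled down by an HA tag and their RNA is sequenced. The study's methods give male C57BL/6J mice, 3 to 5 months of age, whose dorsal CA1 received viral vectors for a Cre recombinase driven by the c-Fos promoter, active only with 4-hydroxytamoxifen, and for Rpl22, a large-subunit ribosomal protein, with an HA tag that depends on Cre. The labels give the genotype as cFos-Cre:Ribotag and the tissue as dorsal hippocampus. All mice, NSD mice included, were sleep deprived for 5 h on day 0, when the neurons were tagged. On day 7 a further 5 h of sleep deprivation was given to the SD group alone. Tissue was taken at ZT 5 and pooled from 5 mice for each library, so that 10 mice per group gave n = 2 libraries. The tag marks neurons that were active on day 0, so the groups were designed to differ only on day 7. The labels number the batches 1 and 2, with an NSD and an SD library in each.

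The libraries held 153511705 to 195910235 counts, and the 9 genes were counted between 3605 times (Lrrtm4 in NSD 2) and 146135 times (Nrxn2 in SD 1), so all 9 entered the test of 22338 genes. Calls required a fold change above 1.2 as well as an adjusted p below 0.05. At these settings 0.770% of all genes tested were called higher in SD (172 genes) and 2.33% lower (520 genes). Scaling by library totals alone gave 96 higher and 694 lower, and protein-coding genes fitted by themselves gave 51 higher and 39 lower. The 6 markers of CA1 pyramidal and other excitatory neurons were counted in every library and summed to 5559 to 6134 CPM. The 6 interneuron markers summed to 719 to 810 CPM and the 4 oligodendrocyte markers to 1262 to 1515 CPM, so genes known from other cells were counted in each library. Markers of endothelial cells moved with the condition. All 5 had a negative log2 fold change and their sum was 33.8 and 47.1 CPM in NSD and 27.9 and 18.6 CPM in SD, with 0 of 5 called by edgeR, 4 at an unadjusted p under 0.05, 4 called lower with the batch block and 3 by DESeq2. Of the CA1 and excitatory markers 3 of 6 were lower in both SD libraries, with 0 called by edgeR, 3 at an unadjusted p under 0.05, 3 called lower with the block and 3 by DESeq2. Of all protein-coding genes 20.0% were lower in both SD libraries, 3.29% were called lower with the block and 1.74% by DESeq2. The part of these cell types in the values below was not tested, and with RNA from pooled tissue fewer cells of a type and less RNA per cell cannot be told apart.

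The 9 genes went in both directions, with 6 positive and 3 negative log2 fold changes between -0.21 and 0.49. The median of their log2 fold changes (SD over NSD) was 0.04, against -0.02 over all genes tested and 0.02 over protein-coding genes. None of the 9 was called in either direction by edgeR, and 4 had an unadjusted p under 0.05. Of these Nrxn2, Lrrtm3 and Lrrtm4 were higher in SD, as were 6.86% of all genes tested at that p, and Nlgn1 was lower, as were 12.2%. The same 3 genes had both SD values above both NSD values, as had 22.0% of all genes tested and 26.5% of protein-coding genes. Nlgn1 had both below, as had 27.5% of all genes tested and 20.0% of protein-coding genes. The libraries of the other 5 genes overlapped between groups. With the batch number as a block, 2 of 9 were called higher (Nrxn2 and Lrrtm3), against 2.99% of all genes tested and 3.77% of protein-coding genes, and 0 lower, against 8.47% and 3.29%. DESeq2 called 1 of 9 higher (Lrrtm3), against 2.95% of all genes and 3.86% of protein-coding genes, and 0 lower, against 5.71% and 1.74%. With 2 libraries against 2, an exact permutation test of a single value cannot give a two-sided p below 0.333, so no such test was used.

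**Figure D1:**
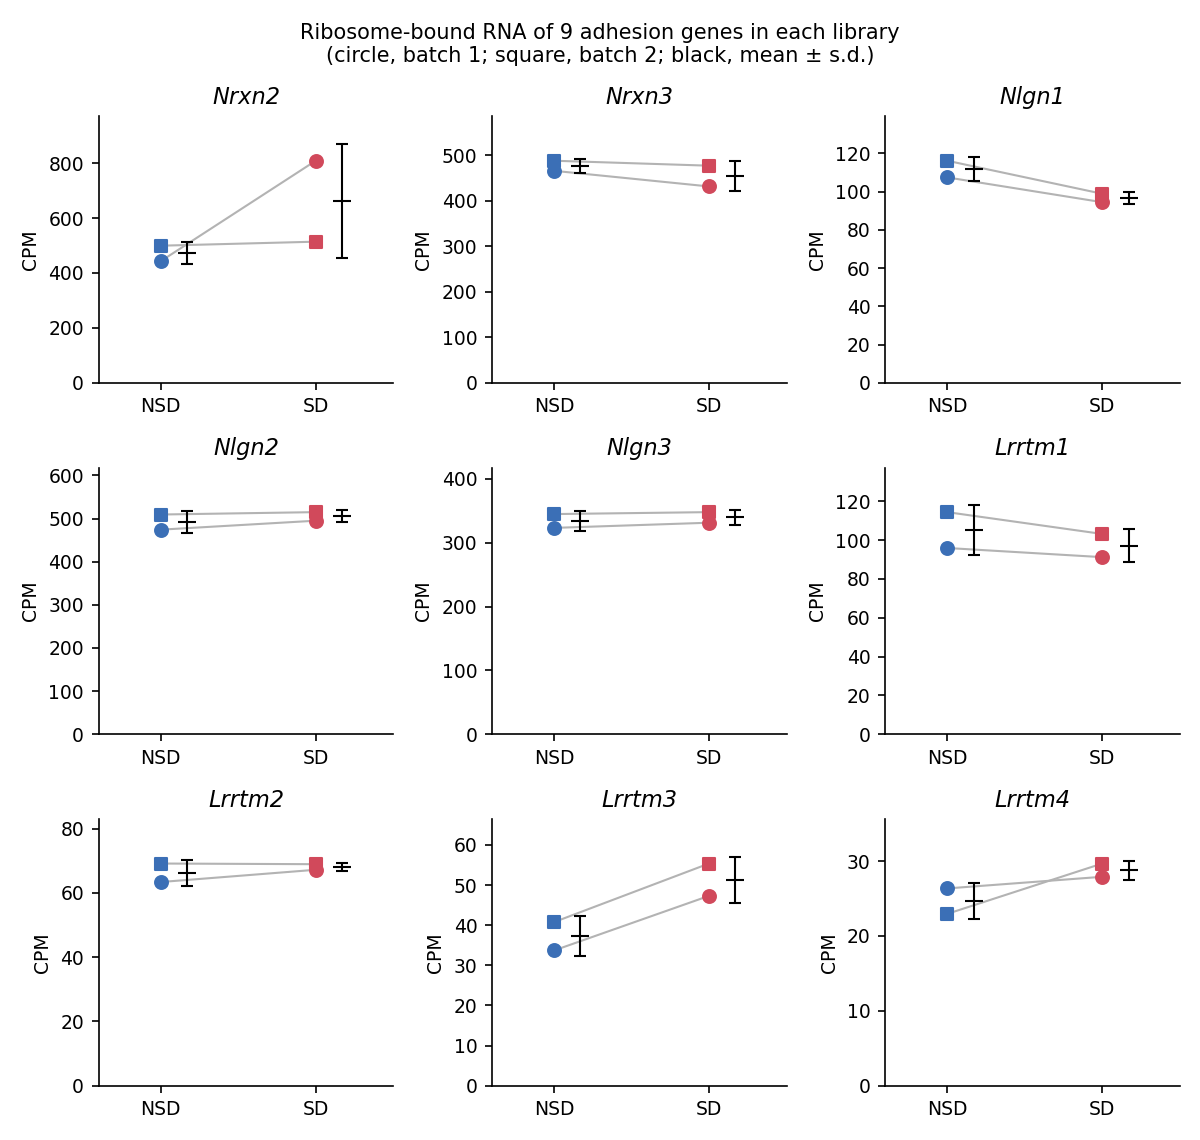
CPM of the 9 genes in each library, with the axis from 0, NSD in blue and SD in red, circles for batch 1 and squares for batch 2, lines joining libraries of the same batch, and the mean ± s.d. of 2 libraries in black. Lrrtm3 is higher in SD along both lines and Nlgn1 lower along both, while the line of Nrxn2 is steep in batch 1 (443 to 809 CPM) and nearly flat in batch 2 (499 to 514 CPM).

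The postsynaptic Lrrtm3 was nearest to a call by edgeR among the 9 genes. Lrrtm3 (ENSMUSG00000042846) lies on the minus strand at chr10:63764251-63926056 of GRCm39, and its product binds neurexins and, through them, takes part in excitatory synapse assembly. It was at 33.7 and 40.8 CPM in NSD 1 and NSD 2 and at 47.3 and 55.4 CPM in SD 1 and SD 2. The groups did not overlap. SD 1 stood 40.4% above NSD 1 of the same batch, and SD 2 stood 35.9% above NSD 2. The log2 fold change was 0.46 (SE 0.11), a fold of 1.38 with a 95% interval of 1.16 to 1.64. The adjusted p by edgeR was 0.0599, just short of a call, and it was 2.46e-04 with the batch block, where the log2 fold change was 0.47 (SE 0.06), and 0.00148 by DESeq2. Without NSD 1 the log2 fold change was 0.36 with an adjusted p of 0.107 by edgeR, and without NSD 2, SD 1 or SD 2 it was 0.61, 0.57 or 0.37 and called (adjusted p = 0.0239, 3.92e-05 and 0.0363, edgeR).

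Lrrtm4 was the least abundant of the 9 per kilobase. It was at 26.3 and 22.9 CPM in NSD and at 27.9 and 29.7 CPM in SD. The groups did not overlap, but SD 1 was only 5.91% above NSD 1, while SD 2 was 29.3% above NSD 2. The log2 fold change of 0.22 (SE 0.09) had an adjusted p of 0.219 by edgeR, and it was 0.36 without NSD 1 and 0.13 without NSD 2, with no call. Lrrtm4 is known as a receptor for the heparan sulfate of glypicans and neurexins.

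Lrrtm1 and Lrrtm2, whose products bind neurexins and help to keep AMPA receptors at excitatory synapses, did not separate the groups. Lrrtm1 was at 95.9 and 114 CPM in NSD and at 91.2 and 103 CPM in SD, a log2 fold change of -0.11 (SE 0.10, and 0.02 without NSD 2). Against the NSD library of its batch, Lrrtm1 differed by -4.92% in SD 1 and by -9.83% in SD 2. With the block the log2 fold change of Lrrtm1 was -0.11 (SE 0.06), with an adjusted p of 0.227 by edgeR. Lrrtm2 was at 63.4 and 69.2 CPM in NSD and at 67.2 and 68.9 CPM in SD, a log2 fold change of 0.04 (SE 0.07) that was -0.02 with library totals alone. The 95% intervals of the fold were 0.791 to 1.08 for Lrrtm1 and 0.919 to 1.15 for Lrrtm2, so a change as large as that of Lrrtm3 lay outside both.

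Shares within a library sum to a fixed total, so a higher share of a gene lowers those of the others, and they are given without a test. As a share of the summed CPM per kilobase of the 4 genes within a library, Lrrtm3 made up 16.1% ± 0.662 in NSD and 21.4% ± 0.822 in SD (s.d., n = 2), with no overlap between groups. Lrrtm1 made up 53.0% ± 1.64 in NSD and 47.1% ± 0.666 in SD, again with no overlap. The shares of Lrrtm2 (21.3% to 23.1%) and of Lrrtm4 (7.20% to 9.45%) overlapped between groups. These shares do not depend on how the libraries were scaled.

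**Figure D2:**
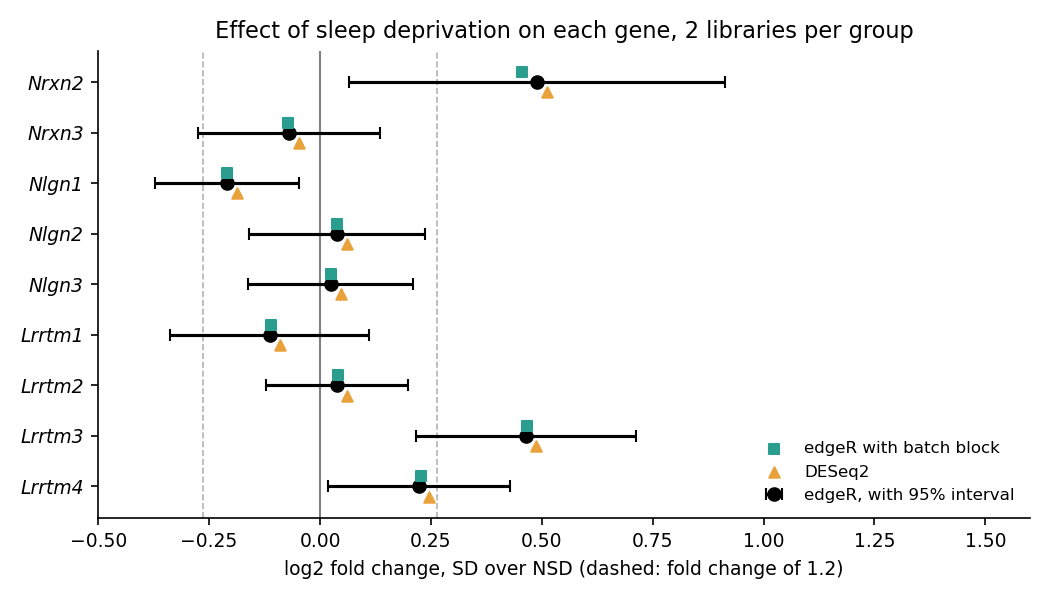
Log2 fold change of SD over NSD for the 9 genes, with the edgeR estimate and its 95% interval in black, the edgeR estimate with the batch block as green squares and the DESeq2 estimate as orange triangles. The intervals of Nrxn2, Lrrtm3 and Lrrtm4 lie above 0 and that of Nlgn1 below, while the other 5 cross 0, and that of Nrxn2 (0.07 to 0.91) is the widest.

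None of the 3 neuroligins was called under any setting tried, and Nlgn1 was the neuroligin whose libraries did not overlap between groups. Nlgn1 (ENSMUSG00000063887), at chr3:25480379-26386609 on the minus strand, encodes the neuroligin of excitatory synapses. It was at 107 and 116 CPM in NSD and at 94.5 and 98.9 CPM in SD, with the groups apart. Relative to the NSD library of the same batch, SD 1 differed by -12.1% and SD 2 by -14.9%. The log2 fold change was -0.21 (SE 0.07), a fold of 0.865 with a 95% interval of 0.773 to 0.968, and the adjusted p was 0.148 by edgeR. With the batch block the adjusted p was 0.0230, but the fold stayed under 1.2 and Nlgn1 was not called.

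Nlgn2, whose product joins gephyrin at inhibitory synapses, was at 474 and 509 CPM in NSD and at 495 and 515 CPM in SD. Nlgn3 was at 323 and 345 CPM in NSD and at 331 and 348 CPM in SD. For both genes the libraries of the groups interleaved, with batch 2 above batch 1 in either group. The log2 fold changes were 0.04 (SE 0.09) for Nlgn2 and 0.02 (SE 0.08) for Nlgn3, and with library totals alone they were -0.02 and -0.04. The 95% intervals of the fold reached from 0.895 to 1.18 for Nlgn2 and from 0.893 to 1.16 for Nlgn3.

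Within the neuroligins the share of Nlgn1 was 6.41% ± 0.036 of their summed CPM per kilobase in NSD and 5.47% ± 0.012 in SD (s.d., n = 2). Nlgn2 took 64.5% ± 0.068 in NSD and 65.4% ± 0.144 in SD. Nlgn3 took 29.0% to 29.2% in all 4 libraries, and its groups overlapped.

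The presynaptic neurexins gave a gene that rested on a single library and a gene that did not separate the groups. Nrxn2 (ENSMUSG00000033768), at chr19:6468761-6594199 on the plus strand, was at 443 and 499 CPM in NSD 1 and NSD 2, at 809 CPM in SD 1 and at 514 CPM in SD 2. SD 1 thus stood apart, 82.6% above NSD 1, while SD 2 was 2.94% above NSD 2. The log2 fold change was 0.49 (SE 0.18), a fold of 1.40 with a 95% interval of 1.05 to 1.88, and the adjusted p was 0.192 by edgeR. With the batch block the log2 fold change was 0.46 with an adjusted p of 0.0403, and Nrxn2 was called, while DESeq2 gave an adjusted p of 0.429. Without SD 1 the log2 fold change was 0.13 (adjusted p = 0.780, edgeR), and without SD 2 it was 0.80 (adjusted p = 6.8e-06, edgeR). The difference thus rested on SD 1.

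The gap between the SD libraries of Nrxn2 was 1.57-fold (0.65 on the log2 scale). Of the 2143 protein-coding genes with a mean of at least 100 CPM, 6 had a larger gap between the SD libraries, and the median gap was 0.07 on the log2 scale. The NSD libraries of Nrxn2 differed 1.13-fold, and 469 of the same genes had a larger gap there. Where along Nrxn2 the additional reads of SD 1 lay cannot be read from counts per gene, and longer and shorter neurexin transcripts are counted together.

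Nrxn3 was at 466 and 488 CPM in NSD and at 431 and 477 CPM in SD. SD 2 lay between the NSD libraries and SD 1 below them. The log2 fold change was -0.07 (SE 0.09; 0.0024 without SD 1), and the 95% interval of the fold was 0.827 to 1.10. Of the summed CPM per kilobase of Nrxn2 and Nrxn3, Nrxn2 made up 46.6% and 48.4% in NSD, 63.2% in SD 1 and 49.7% in SD 2. These shares depend on the length used. Over the 4 libraries Nrxn2 and Nrxn3 had means of 41.0 and 36.7 CPM per kilobase of all exons. With the longest coding transcript as length the means were 84.9 and 58.7.

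Divided by the length of their exons, the 9 genes spanned an 18.6-fold range of level. Nlgn2 was highest with 80.9 ± 2.94 CPM per kilobase (s.d. over all 4 libraries). Nrxn2 (41.0 ± 11.9), Nrxn3 (36.7 ± 1.93) and Nlgn3 (36.2 ± 1.25) followed, and neighbours in this order overlapped between libraries. Lrrtm1, at 24.9 ± 2.48 CPM per kilobase, was separate from the genes on either side. Lrrtm2 (11.1 ± 0.440), Lrrtm3 (9.36 ± 1.96) and Nlgn1 (7.39 ± 0.680) formed the next run, again with overlap between neighbours. Lrrtm3 was below Nlgn1 in NSD 1, at 7.12 against 7.61 CPM per kilobase, and above it in SD 2, at 11.7 against 7.01. Lrrtm4 was lowest with 4.35 ± 0.465. The length used was all annotated exon sequence of a gene. With the longest coding transcript as length, Nrxn2 came close to Nlgn2, at 84.9 against 89.5 CPM per kilobase.

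**Figure D3:**
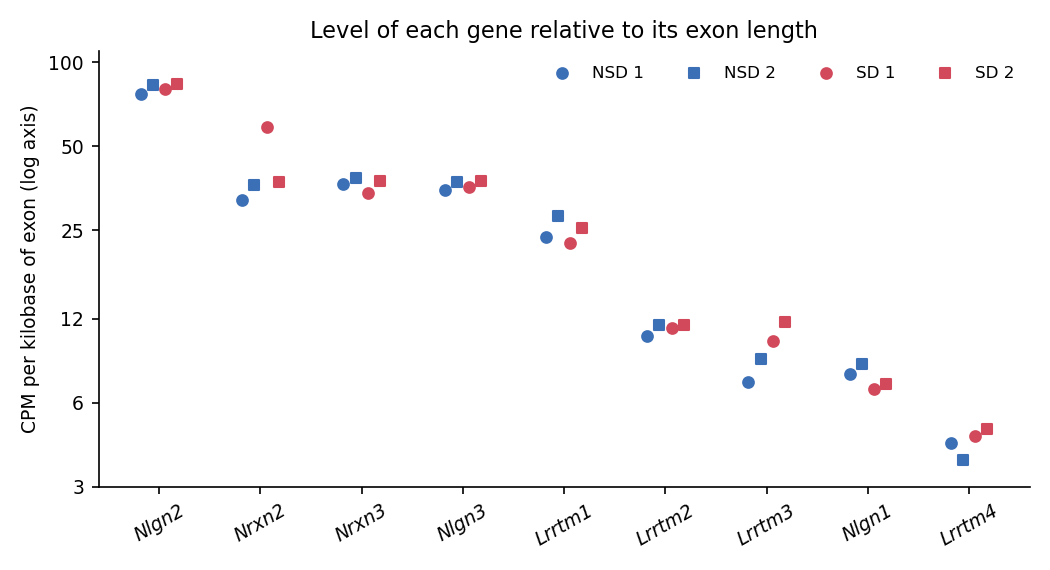
CPM per kilobase of exon for each gene and library on a log axis, in the order of the mean, with NSD in blue and SD in red. Nlgn2 lies above the rest in all 4 libraries, Nrxn2 in SD 1 stands above its other 3 libraries, and the SD libraries of Lrrtm3 lie above and those of Nlgn1 below their NSD libraries.

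Promoters of 6 of the 9 genes were matched by symbol in the RefSeq promoter table (GRCm38.p6), which gave 10 windows of 250 bases before a transcription start. They were searched on both strands for letters bound by activity-dependent factors. These were TGACGTCA, the cyclic AMP response element (CRE), its shorter core TGACG, which the full element also holds, and TGANTCA. The last is a loose form of the AP-1 site bound by Fos and Jun dimers, with any base in the middle. None of the 10 windows held TGACGTCA, which 1.55% of all 32851 promoters in the table held, and none held TGACG, which 17.8% held. A window of Nrxn3 held TGANTCA, as 6.75% of all promoters did. The windows of Lrrtm3 (chr10:64090256-64090505, minus strand) and Nlgn1 (chr3:26331910-26332159, minus strand) are shown since the values of these genes differed from NSD in opposite directions in both batches, and that of Nrxn3 (chr12:88953140-88953389, plus strand) since it held the match, in capitals. A match is a description of the letters, and no binding was measured. All are written 5′ to 3′ on the strand of the gene.
Lrrtm3: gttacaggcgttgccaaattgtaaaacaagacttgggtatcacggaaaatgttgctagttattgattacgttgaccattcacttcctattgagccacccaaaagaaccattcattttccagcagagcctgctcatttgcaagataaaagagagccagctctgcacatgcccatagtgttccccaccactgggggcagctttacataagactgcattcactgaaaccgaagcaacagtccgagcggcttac
Nlgn1: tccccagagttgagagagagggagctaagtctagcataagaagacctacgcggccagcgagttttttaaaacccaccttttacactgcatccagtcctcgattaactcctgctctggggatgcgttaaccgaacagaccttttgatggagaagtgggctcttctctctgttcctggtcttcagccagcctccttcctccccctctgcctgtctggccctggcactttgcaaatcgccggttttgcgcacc
Nrxn3: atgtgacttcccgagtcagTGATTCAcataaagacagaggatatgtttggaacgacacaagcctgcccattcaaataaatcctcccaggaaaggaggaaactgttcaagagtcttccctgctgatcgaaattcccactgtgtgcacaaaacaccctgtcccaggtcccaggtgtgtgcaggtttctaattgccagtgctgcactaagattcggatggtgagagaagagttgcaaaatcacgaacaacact

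Several of these genes are very long and hold other annotated loci. Nrxn3 spans 1612 kb, Nlgn1 906 kb and Lrrtm4 791 kb, and with Nrxn2 they hold 16 loci with their own counts. All 16 had a negative log2 fold change, with a median of -2.02, while the 4 genes around them lay between -0.21 and 0.49. Of the 16, 12 are annotated as TEC, a provisional class of mostly unspliced transcripts that still awaits experiments, and 9 of these 12 were called lower by edgeR, against 18.5% of all TEC genes tested. The TEC genes of the whole table had a median log2 fold change of -1.51, and 77.8% of them had both SD values below both NSD values, as had 11 of these 12. With the batch block 11 of the 12 were called lower, against 52.6% of TEC genes.

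Lrrtm4 held 8 of the TEC loci, all on its own strand. Their summed level was 16.0 and 9.75 CPM in NSD and 3.70 and 2.31 CPM in SD, which was 60.6% and 42.5% of the CPM of Lrrtm4 itself in NSD and 13.2% and 7.77% in SD. All 8 were lower in both SD libraries, with log2 fold changes from -2.72 (Gm44228) to -1.48 (Gm44231), and 6 were called by edgeR and 8 with the batch block. Lrrtm4 went the other way, with a log2 fold change of 0.22. Gm44228, at chr6:80194434-80196459, was at 2.62 and 1.39 CPM in NSD and at 0.360 and 0.249 CPM in SD (SE 0.40, adjusted p = 0.0328 by edgeR).

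Inside Nlgn1 both loci had both SD values below both NSD values, as had 2 of 3 in Nrxn2 and 27.5% of all genes tested. In Nrxn3, where all 3 loci are TEC, 2 of 3 did so, against 77.8% of TEC genes. In Nlgn1 the lncRNA Gm37573, on the same strand, fell by 2.90 on the log2 scale (SE 0.47, adjusted p = 0.0363 by edgeR), from 0.682 and 0.624 CPM to 0.105 and 0.0687 CPM. The opposite-strand pseudogene Gm6197 in Nlgn1 had a log2 fold change of -1.74 (adjusted p = 0.0768 by edgeR and 0.0182 with the block). In Nrxn3 the same-strand TEC loci Gm48692 and Gm48700 had log2 fold changes of -2.34 and -2.26 (adjusted p = 0.0451 and 0.0405 by edgeR), while the opposite-strand Gm37980 had -0.12 (SE 0.20). In Nrxn2 the opposite-strand TEC locus Gm50151 fell by 1.99 (SE 0.37, adjusted p = 0.0397 by edgeR), and in SD 1, where Nrxn2 was highest, it was at 0.586 CPM against 2.30 CPM in NSD 1. The other opposite-strand loci of Nrxn2, Gm14964 and Slc22a12, had log2 fold changes of -0.45 (SE 0.45) and -0.23 (SE 0.59), with adjusted p of 0.676 and 0.891 by edgeR. The loci named in these paragraphs were chosen after their values were seen.

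**Figure D4:**
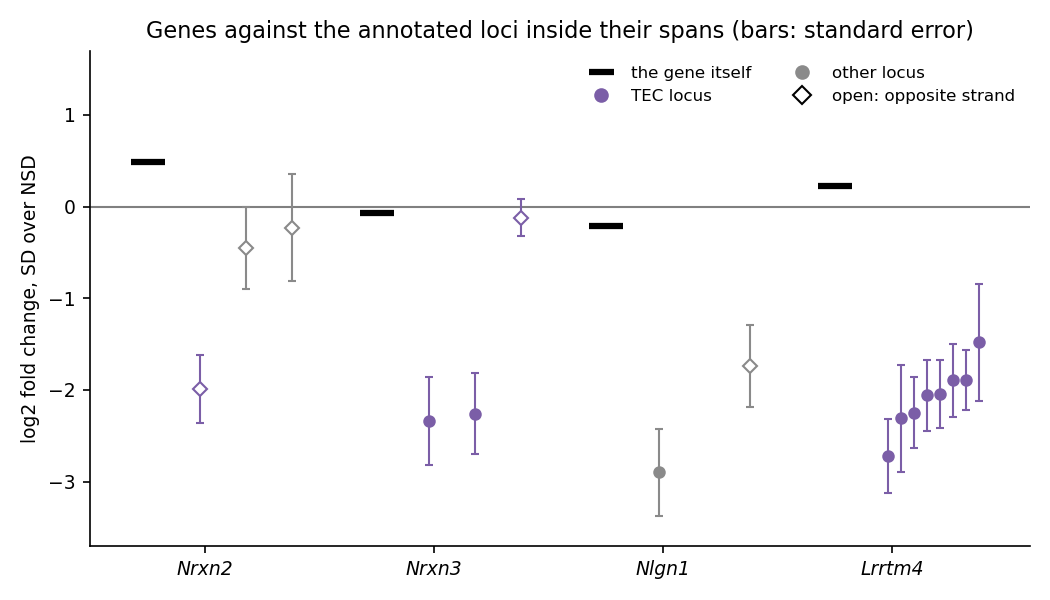
Log2 fold change of SD over NSD for 4 genes (black bars) and for the 16 annotated loci inside their spans, TEC loci in purple and others in gray, open diamonds for loci on the opposite strand, with standard errors. The 8 loci in Lrrtm4 lie between -2.72 and -1.48 while Lrrtm4 lies at 0.22.

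Some exons are shared with a neighbor, and whether the counting used strand is not given in the sources used here. Nlgn3 shares 3823 bases (41.1% of its exons) with the same-strand lncRNA Gm21986, at 1.11 to 1.76 CPM over the 4 libraries. Lrrtm4 shares 25.1% of its exons with the antisense Gm4409, at 1.86 and 4.80 CPM in NSD and 2.96 and 3.12 CPM in SD. Nlgn1 shares 8.71% with the antisense A830092H15Rik, at 1.21 and 2.28 CPM in NSD and 3.01 and 2.98 CPM in SD (log2 fold change 0.78, adjusted p = 0.194 by edgeR and 0.0257 with the block). The part of shared exons in these counts was not tested. The overlaps of the other genes were at most 4.94% of their exons.

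Lrrtm1, Lrrtm2 and Lrrtm3 lie inside genes of the alpha-catenins, which link cadherins to actin, on the opposite strand. The host of Lrrtm3, Ctnna3, was at 3.44 and 2.55 CPM in NSD and at 2.25 and 2.36 CPM in SD, a log2 fold change of -0.38 (SE 0.22, adjusted p = 0.407 by edgeR) and thus of the other sign than that of Lrrtm3. Ctnna2, the host of Lrrtm1, had a log2 fold change of 0.12 (SE 0.07), and Ctnna1, the host of Lrrtm2, of 0.03 (SE 0.08), and neither was called.

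Around these genes stand the proteins that bridge, compete with or anchor them, 80 listed genes of which 79 were in the table and tested. The median of their log2 fold changes was 0.02. By edgeR 1 was called higher (Cbln2) and 1 lower (Gpc4), where 0.952% of all protein-coding genes tested were called higher and 0.540% lower. With the batch block 6 were called higher and 3 lower, against 3.77% and 3.29% of protein-coding genes, and DESeq2 called 7 higher and 3 lower, against 3.86% and 1.74%. All partner genes called with the block were also called by DESeq2, which had no block. In 27 of the 79 genes both SD values exceeded both NSD values and in 11 both were below, where 26.5% and 20.0% of protein-coding genes did so.

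Of the 11 secreted linkers and neurexophilins tested, Cbln2 was called by edgeR and Nxph3 with the block as well. Cbln2, cerebellin 2, is a secreted synaptic organizer that binds neurexins. It was at 15.9 and 14.4 CPM in NSD and at 20.4 and 23.3 CPM in SD, a log2 fold change of 0.53 (SE 0.10, adjusted p = 0.0397 by edgeR), and without NSD 2 the adjusted p was 0.0601. The call was also lost with no count filter (adjusted p = 0.0524), filterByExpr (0.0628) or protein-coding genes only (0.0637) in edgeR. Nxph3, a secreted neurexin ligand, was at 47.3 and 42.7 CPM in NSD and at 54.1 and 61.2 CPM in SD (log2 fold change 0.36, adjusted p = 0.0633 by edgeR and 0.00594 with the block). C1ql3, a C1q-like protein and the gene of this group with the most reads, had a log2 fold change of 0.22 (SE 0.10), with an adjusted p of 0.284 by edgeR. For C1ql3 the log2 fold change was 0.10 without NSD 1 and 0.39 without NSD 2, where it was called (adjusted p = 0.0375, edgeR). Nxph3 was called without NSD 1 (adjusted p = 0.0429, edgeR) or SD 1 (0.00300) and not without NSD 2 (0.118) or SD 2 (0.157).

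Among the 14 other surface partners, Gpc4 was called lower by edgeR and Adgrb3 with the block as well. Gpc4, the heparan sulfate proteoglycan glypican 4 and a partner of LRRTM4, was at 28.1 and 29.9 CPM in NSD and at 21.2 and 22.2 CPM in SD. Its log2 fold change was -0.42 (SE 0.08, adjusted p = 0.0397 by edgeR), and without NSD 1 or NSD 2 the adjusted p was 0.0509 or 0.0594. The call was also lost with no count filter (adjusted p = 0.0571), filterByExpr (0.0629) or protein-coding genes only (0.0501) in edgeR. Gpc4 is known from astrocytes among other cells, and the 5 astrocyte markers summed to 414 to 455 CPM in NSD and 428 to 463 CPM in SD. Adgrb3, an adhesion receptor for C1q-like proteins, was at 180 and 190 CPM in NSD and at 143 and 156 CPM in SD (log2 fold change -0.31, adjusted p = 0.0713 by edgeR and 0.00440 with the block). Adgrl1, the latrophilin with the most reads of this group, was at 1246 to 1264 CPM in NSD and 1273 to 1343 CPM in SD (log2 fold change 0.06).

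Of 18 genes of the LAR-type receptor phosphatases and their ligands, 0 were called by edgeR and 4 had an unadjusted p under 0.05 (1 higher and 3 lower, against 6.86% and 12.2% of all genes tested). DESeq2 called 1 of the 18 higher (Ptprf), as it did 3.86% of protein-coding genes. In 3 of the 18 both SD values exceeded both NSD values and in 5 both were below, where 26.5% and 20.0% of protein-coding genes did so. Ptprf, which encodes the phosphatase LAR itself, was at 55.4 and 56.9 CPM in NSD and at 67.0 and 72.5 CPM in SD. The log2 fold change was 0.31 (SE 0.07), with an adjusted p of 0.0528 by edgeR and 0.00279 with the block. It was called without SD 1 (adjusted p = 0.0201, edgeR) and not without SD 2 (0.173), NSD 1 (0.0875) or NSD 2 (0.0594). Its relatives Ptprd and Ptprs, named after their values were seen, had -0.15 (SE 0.09) and -0.03 (SE 0.09). Ntrk3, the neurotrophin receptor with the most reads in this group, had 0.10 (SE 0.09).

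Of 18 other synaptic adhesion genes 0 were called by edgeR and 8 had an unadjusted p under 0.05 (7 higher and 1 lower, against 6.86% and 12.2% of all genes tested). DESeq2 called 3 of the 18 higher, against 3.86% of protein-coding genes. Elfn1, which recruits presynaptic metabotropic glutamate receptors, was at 77.8 and 92.5 CPM in NSD and at 105 and 116 CPM in SD (log2 fold change 0.38, adjusted p = 0.0704 by edgeR and 6.95e-04 with the block). Flrt1, a fibronectin leucine-rich repeat receptor that binds latrophilins, was at 117 and 125 CPM in NSD and at 143 and 148 CPM in SD (log2 fold change 0.27, adjusted p = 0.0799 by edgeR and 0.00792 with the block). Elfn2, with the most reads in this group, was at 498 and 459 CPM in NSD and at 562 and 554 CPM in SD (log2 fold change 0.22, adjusted p = 0.210 by edgeR). Elfn1 was called without NSD 2 (adjusted p = 0.0235, edgeR) or SD 1 (0.00202) and not without NSD 1 (0.142) or SD 2 (0.0603). In 10 of the 18 genes both SD values exceeded both NSD values, and in 1 both were below, where 26.5% and 20.0% of protein-coding genes did so.

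Of 13 scaffold genes 0 were called by edgeR, 1 had an unadjusted p under 0.05 and was higher in SD, as were 6.86% of all genes tested, and DESeq2 called 1 higher, as it did 3.86% of protein-coding genes. That gene was Dlg1, which encodes the membrane-associated scaffold SAP97, at 119 and 115 CPM in NSD and at 143 and 146 CPM in SD (log2 fold change 0.30, adjusted p = 0.0521 by edgeR and 0.00410 with the block). Dlg4, which encodes PSD-95 and had the most reads in this group, had a log2 fold change of 0.12 (SE 0.09). In 7 of the 13 both SD values exceeded both NSD values, as in 26.5% of protein-coding genes.

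Of 5 genes for neurexin splicing and for shedding of these adhesion proteins 0 were called by edgeR, 1 had an unadjusted p under 0.05 and was lower in SD, as were 12.2% of all genes tested, and DESeq2 called 1 lower, as it did 1.74% of protein-coding genes. Khdrbs2 encodes SLM1, an RNA-binding protein that regulates neurexin splicing. It was at 9.24 and 7.49 CPM in NSD and at 5.76 and 4.96 CPM in SD (log2 fold change -0.64, SE 0.15), with an adjusted p of 0.0611 by edgeR, 0.00236 with the block. It was called without NSD 2 (adjusted p = 0.0435, edgeR) or SD 1 (0.00367) and not without NSD 1 (0.226) or SD 2 (0.113). Its relatives Khdrbs1, with the most reads in this group, and Khdrbs3, named after its values were seen, had log2 fold changes of 0.07 (SE 0.08) and -0.01 (SE 0.07).

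**Figure D5:**
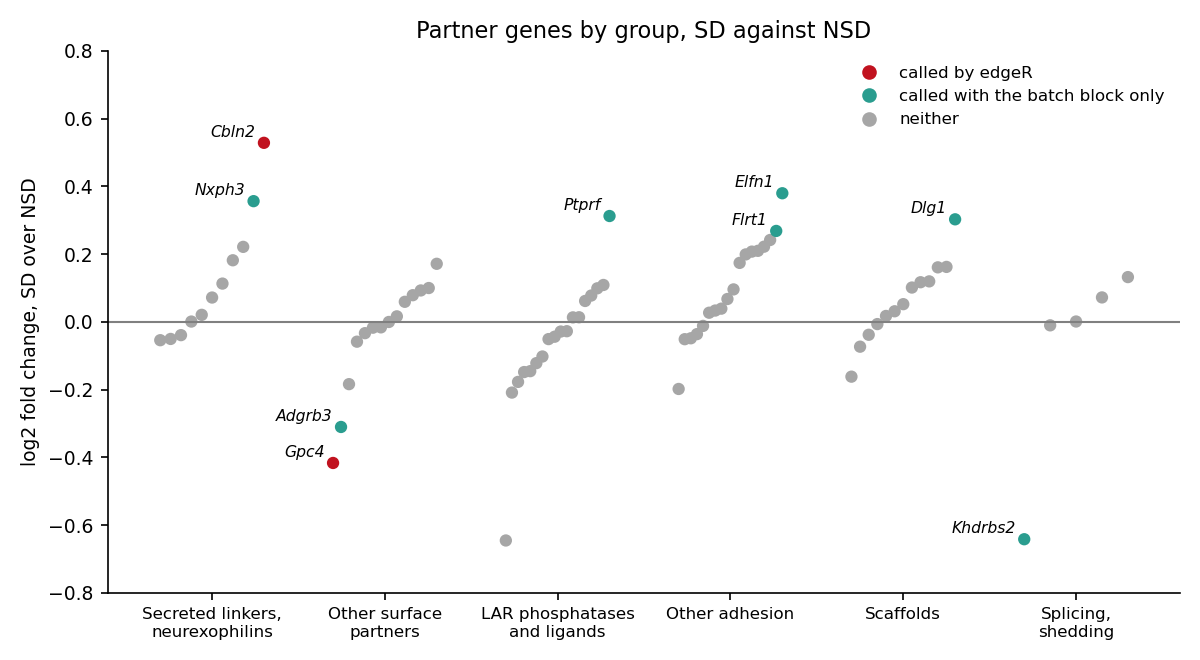
Log2 fold change of SD over NSD for the 79 partner genes in 6 groups, in order of size within a group. Genes called by edgeR without the block are in red, genes not red but called with the block are in green, and the others are in gray. Cbln2 (0.53) and Gpc4 (-0.42) are the genes in red, and 7 genes are in green, all of them also called by DESeq2.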

How the data were processed

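Stranded libraries of ribosome-bound RNA were prepared from 2 pools of mice per group. The authors aligned the reads with STAR and quantified genes in Partek Flow by expectation maximization. The submitters' processing notes name Partek and the genome build mm39. The authors deposited these estimated counts unnormalized, and 55.6% of genes have a value that is not whole. All were rounded. Genes above 5 counts in each library entered a quasi-likelihood test in edgeR 4.0.16 (R 4.3.3) with TMM scaling and no term but condition, and p-values were adjusted by Benjamini-Hochberg over all genes tested. CPM are TMM-scaled, standard errors come from the test statistic, and intervals cover 95%. DESeq2 1.42.0, without independent filtering, was an alternative. The fits were tested on simulated counts.

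The batch numbers in the labels pair the libraries, and around the group means, libraries of a shared number deviated together across genes (correlation 0.178). Samples were grouped by the treatment label. All 4 sample columns of the table matched a library, and 0 were left over. Exon lengths and positions came from a GENCODE annotation of GRCm39, which held 27962 of the 28193 gene identifiers of the table and gave the same end position for 14922, counting the table's end as 1 base past the last. Each library held 153511705 counts or more, and the 9 genes had 3605 or more each, so for these genes the spread between libraries weighed more than counting error. The test took that spread partly from other genes, and 6.38 of a median of 8.38 degrees of freedom came from them. Standard errors, intervals and p-values by edgeR thus rest largely on the spread of other genes. For the sparse loci inside the 9 genes, counting error adds to the spread.

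The genes, partner lists and markers were chosen with earlier results of these data known. The genes named were the 9 genes, their host genes, partners called by edgeR with or without the block, and the partner with the highest CPM in each group. Ptprd, Ptprs, Khdrbs3 and the loci inside or overlapping the genes were named after their values were seen. C1ql4 had no row in the table used here. Some genes and sequences are not reported here. Other alternatives were DESeq2's size factors, library totals, other count filters, protein-coding genes only, no fold threshold, the longest coding transcript as length, and each library left out.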

Additional observations from a re-analysis of the deposited data

How the results depend on the processing

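The number of genes called in the whole table varied with the settings. It was 172 higher and 520 lower as reported, 668 and 1891 with the batch block, 660 and 1276 with DESeq2, 229 and 457 with DESeq2's size factors, 96 and 694 with library totals alone, 50 and 80 without a count filter, 1 and 0 with filterByExpr and 51 and 39 with protein-coding genes only. Without 1 library it ranged from 144 to 321 higher and from 87 to 1953 lower. A library left alone in its group was assumed to vary like the other group.

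None of the 9 genes was called lower under any of these settings. The number called higher was 0 as reported, 2 with the batch number as a replicate block, 1 with DESeq2 and 0 to 2 without 1 library. Of the partner genes, 1 was called higher and 1 lower as reported. The counts were 6 and 3 with the block, 7 and 3 with DESeq2, 3 and 1 with DESeq2's size factors, 1 and 3 with library totals, and 0 and 0 with no filter, filterByExpr or protein-coding genes only. Without 1 library they were 1 to 4 higher and 0 to 2 lower. The cause was not tested. Cbln2 had an adjusted p of 2.19e-04 to 0.0637 and Gpc4 of 0.0013 to 0.0629 (edgeR and DESeq2) over these alternatives.

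The log2 fold changes of the 9 genes kept their sign except those near 0. With library totals they were -0.022 for Nlgn2, -0.0363 for Nlgn3 and -0.0212 for Lrrtm2, where the median of all genes was -0.0761. Without 1 library Nrxn3 ranged from -0.126 to 0.00245 (without SD 1) and Lrrtm1 from -0.205 to 0.0194 (without NSD 2). Besides the calls given in the text, the block added 1 lower call among the CA3 and CA2 markers, 1 lower among the interneuron markers and 1 higher among the oligodendrocyte markers, and changed no other call among the genes described. With the longest coding transcript as length, levels in CPM per kilobase were 84.9 for Nrxn2, 58.7 for Nrxn3, 8.83 for Nlgn1, 89.5 for Nlgn2 and 39.2 for Nlgn3. They were 32.2 for Lrrtm1, 11.8 for Lrrtm2, 10.3 for Lrrtm3 and 5.80 for Lrrtm4.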
